A study of Mus musculus with 24 samples.

Results

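BAT and WAT preadipocytes that had been differentiated with EGCG were compared with each other on day 4. The members were chosen by their GEO labels alone (depot, treatment and day), which gave 6 of the 24 libraries, 3 from BAT cells and 3 from WAT cells. The cells were the stromal vascular fraction (SVF) of inguinal WAT or interscapular BAT of 6-week-old C57BL/6 mice. They were grown to near confluence and were still in induction medium (insulin, dexamethasone and isobutylmethylxanthine) on day 4. EGCG was added to the medium, and the control cells of each depot received no EGCG, with DMSO named as the other addition. The labels give no EGCG dose. The SVF is a mixture that keeps whatever cells attach to the dish besides preadipocytes. The labels do not say whether the replicates of a group were separate isolations, so p-values measure the spread between these libraries, which may be technical. The remaining 18 libraries were the matching control cells of day 4 and all groups of day 8, and the 6 control libraries of day 4 served as the comparison here.

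Preadipocytes are committed fibroblast-like cells. On induction they switch on the transcription factors PPARG and C/EBPα, lose much of their matrix and contractile gene expression, and fill with lipid droplets. Brown and white preadipocytes arise from different embryonic sources and keep different sets of positional transcription factors in culture. EGCG, epigallocatechin gallate, is the main catechin of green tea. The question addressed was which differences between brown and white cells were present in cells that had differentiated with EGCG, and whether each differed from the same comparison without EGCG.

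Levels are given as FPKM, fragments per kilobase of transcript, scaled to library size, for replicates 1, 2 and 3 in this order. Replicates 1 and 2 came in one table and replicate 3 in a table made separately. The tests therefore used replicates 1 and 2, and replicate 3 was compared only with the direction. The EGCG libraries of day 4 held 43895262, 49311089 and 18146594 reads on genes in BAT cells and 44106265, 46621863 and 23449134 in WAT cells. A log2 change is the BAT mean minus the WAT mean of log2(FPKM + 1), so positive values are higher in BAT, and the added 1 understates the change of low genes. A gene was called with limma at a Benjamini-Hochberg adjusted p under 0.05 over 14095 genes tested. The interaction is the log2 change with EGCG minus that in control cells. The depot labels were matched by Zic1 and Hoxc10, and Pdgfra and Pparg, markers of adipose progenitors and adipocyte fate, were present in all 6 libraries, as their values below show.

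With EGCG, 6865 genes differed between the depots. In bulk RNA, fewer cells of a type and less RNA per cell cannot be told apart, here or in the results that follow. Of the genes tested, 4644 (32.9%) were higher in BAT cells and 2221 (15.8%) were lower. Counts of list members below are to be read beside these shares. The lists were chosen with earlier results of these data known, so these counts are descriptions. The excess of higher calls depended on scaling, since 67.6% of the called genes were higher as deposited, 54.8% after median-ratio scaling and 50.7% after quantile normalization. At least 2-fold differences numbered 411 higher (2.92% of genes tested) and 296 lower (2.1%). In replicate 3, 95.5% of the called genes and 660 of these 707 genes had the same direction, against 79.5% of all tested genes. Of the other 47 genes, 44 were listed at 0 in both replicate 3 libraries. These 44 were mainly short RNAs, with 13 miRNA, 12 snoRNA and 10 snRNA genes.

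The depot difference without EGCG was partly on the same genes. In control cells 304 genes (2.16%) were at least 2-fold higher in BAT cells and 328 (2.33%) were at least 2-fold lower. Both comparisons shared 242 genes in the same direction, 34.2% of the EGCG list and 38.3% of the control list, and 5 genes in opposite directions. The interaction was called for 1689 genes as higher (12%) and for 2270 as lower (16.1%). It was called for 414 of the 707 genes at least 2-fold different with EGCG and for 374 of the 632 in control cells, shares that draw on the same libraries as the lists. Of these 632 genes, 159 were not called with EGCG.

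**Figure D1:**
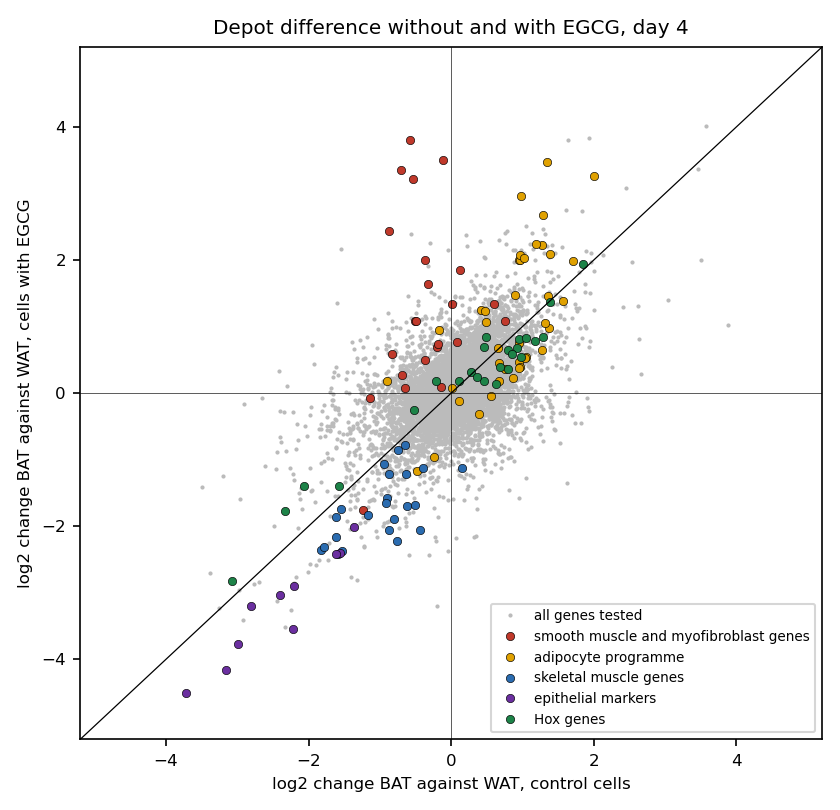
Depot difference of each tested gene in control cells (x axis, log2 change BAT against WAT) and in EGCG-treated cells (y axis, same unit) on day 4, with 5 gene lists in colour and the line of equal change in black. Most smooth muscle and myofibroblast genes lie above the line, Actg2 by 4.39, whereas Hox genes lie along it and the skeletal muscle genes and epithelial markers lie to the lower left.

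The genes with the largest differences were secreted, lipid droplet, contractile and positional genes on the BAT side and epithelial, matrix and protease inhibitor genes on the WAT side. Il1rn, the interleukin-1 receptor antagonist (chr2:24192373-24207014, mm9), was at 1.42, 2.06 and 1.76 FPKM in WAT cells and 45.5, 40.7 and 40.2 in BAT cells, a log2 change of 4.02 ± 0.15 (SE, adjusted p = 9.01e-09). Hp, the haemoglobin-binding protein haptoglobin, was at 24, 24.5 and 24.3 in WAT cells and 366, 353 and 397 in BAT cells, a log2 change of 3.84 ± 0.12 (SE, adjusted p = 3.14e-09). Ltbp2, a latent TGF-beta binding protein of microfibrils, was at 4.06, 3.80 and 4.21 and 75.1, 60.7 and 59.8, a log2 change of 3.80 ± 0.12 (SE, adjusted p = 3.14e-09). For each of these genes all BAT libraries lay far above all WAT libraries. Wisp2, a secreted CCN family protein, was higher by 3.09. Of the 12 highest genes, 10 also had a larger BAT excess with EGCG than without by the interaction test, the exceptions being Il1rn and Zic1, although the call of Wisp2 (adjusted p = 0.0346) ended without BAT replicate 2 (adjusted p = 0.122) or WAT replicate 2 (adjusted p = 0.118) and without any 1 of the control libraries (adjusted p from 0.0723 to 0.0837).

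On the other side, Lum, the small leucine-rich proteoglycan lumican, was at 57.2, 71.7 and 56.6 FPKM in WAT cells and 4.47, 7.83 and 6.93 in BAT cells, a log2 change of -3.23 ± 0.19 (SE, adjusted p = 2.21e-07). A2m, the broad protease inhibitor alpha-2-macroglobulin (chr6:121586191-121629255), was at 215, 197 and 209 in WAT cells and 20.8, 22.1 and 23.9 in BAT cells, a log2 change of -3.20 ± 0.24 (SE, adjusted p = 1.26e-06). The WAT and BAT libraries did not overlap for either gene. Lum differed as much in control cells, with a log2 change of -3.26, whereas A2m was at 19.5, 22.3 and 22.8 FPKM in WAT control cells and 23.3, 14 and 18.1 in BAT control cells. The A2m level in WAT cells with EGCG thus stood apart from the other 3 groups, with an interaction of -3.01 ± 0.35 (SE, adjusted p = 9.57e-05). The other 10 lowest genes were keratins, claudin and secreted epithelial proteins and are described with the cell type markers.

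**Figure D2:**
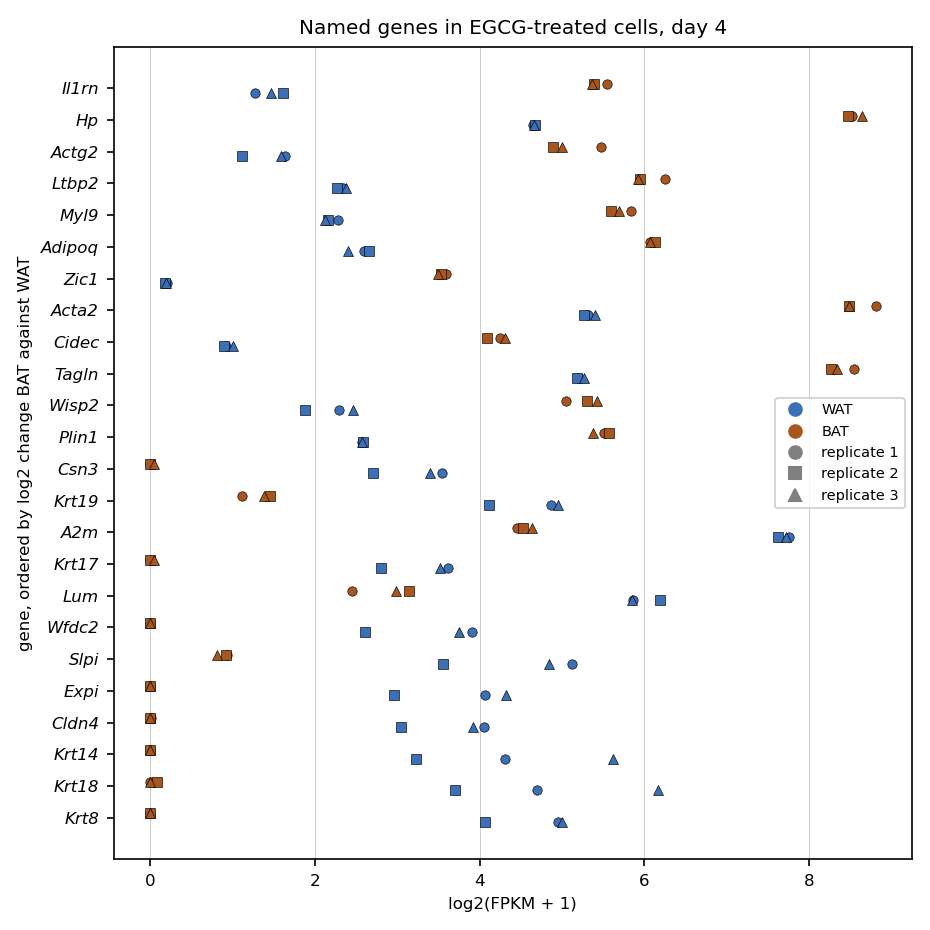
Levels of the 12 highest and 12 lowest genes, as log2(FPKM + 1) on the x axis, in the 3 WAT and 3 BAT libraries with EGCG, 1 symbol per replicate. The BAT and WAT points of each gene are apart in every row, and the WAT points of the epithelial genes spread most, with replicate 2 at the low end.

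Contractile genes were higher in BAT cells with EGCG, which they were not in control cells. Smooth muscle actin and its partners form the stress fibres of smooth muscle cells and myofibroblasts, and preadipocytes express them before they round up into adipocytes. Of 23 tested members of the smooth muscle and myofibroblast list, 19 were higher in BAT cells with EGCG, 1 was lower and 3 were not called. The median log2 change was 1.08 against 0.09 over all genes tested. In control cells 2 were higher and 13 lower, with a median of -0.37, and the interaction was called as higher for 20 of 23 and as lower for 1. These counts stayed within 1.5 times under median-ratio scaling and quantile normalization, apart from the 1 lower interaction, which was not called after median-ratio scaling.

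Acta2, smooth muscle alpha-actin (chr19:34315580-34329826), was at 39, 37.5 and 41.4 FPKM in WAT cells with EGCG and 447, 357 and 357 in BAT cells with EGCG. Without EGCG it was at 97.5, 80.4 and 83 in WAT cells and 47.5, 61.2 and 64.2 in BAT cells. The BAT libraries with EGCG were above all others and the WAT libraries with EGCG were the lowest of the 4 groups, so that the depots exchanged places. The log2 change was 3.35 ± 0.18 (SE, adjusted p = 8.43e-08) with EGCG and -0.70 without, and the interaction was 4.06 ± 0.25 (SE, adjusted p = 1.32e-06). The smaller difference in control cells was not called without BAT control replicate 1 (adjusted p = 0.0556). Tagln, the actin-bundling protein transgelin, was at 35.6, 35.4 and 37.6 in WAT cells and 371, 306 and 322 in BAT cells with EGCG, against 76.1, 68.8 and 67.8 and 44.5, 55.5 and 59.5 without. Its log2 change was 3.21 ± 0.15 (SE, adjusted p = 3.21e-08) with EGCG and -0.53 without, the latter with adjusted p = 0.0885 without BAT control replicate 1 and 0.0614 without WAT control replicate 1. Tagln overlaps Pcsk7 on the opposite strand, and the strand setting of the counting is not given in the sources used here.

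Myl9, the regulatory myosin light chain of smooth muscle, was at 3.86, 3.46 and 3.36 FPKM in WAT cells and 56.2, 47.3 and 50.7 in BAT cells with EGCG, a log2 change of 3.50 ± 0.14 (SE, adjusted p = 1.67e-08). In control cells it was at 11.2, 9.47 and 12.3 and 8.75, 10.2 and 12.1, with no call between depots (adjusted p = 0.54). Actg2, the enteric smooth muscle actin, was at 2.11, 1.17 and 2.02 in WAT cells and 43.4, 28.8 and 31 in BAT cells, a log2 change of 3.81 ± 0.23 (SE, adjusted p = 2.52e-07). Reads of Acta2 and Actg2 can be split with their near-identical actin paralogs, which makes both values uncertain, and the part of such reads was not tested. The striated muscle actins Acta1 and Actc1 had log2 changes of -1.86 and -2.23. The calponins Cnn1 and Cnn2, which bind actin, were higher by 2.43 and 2.00, leiomodin Lmod1 by 1.85, tropomyosins Tpm2 and Tpm1 by 1.63 and 1.08, and the actin cross-linker Actn1 by 1.34. The abundant light chain Myl6 and the focal adhesion protein Vcl were higher by 0.77 and 0.73. Des, the muscle intermediate filament desmin, was the lower member, at 14.5, 13.6 and 14.4 in WAT cells and 3.23, 3.70 and 4.62 in BAT cells.

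The summed level of the 24 listed contractile genes put these values in scale. It was 982, 962 and 916 FPKM in WAT cells with EGCG and 2630.1, 2284 and 2109 in BAT cells with EGCG, against 1140.2, 1094 and 988 in WAT and 918, 1019 and 929 in BAT control cells. Only the BAT cells with EGCG were outside the range of the other groups. Between treatments within a depot, 15 of 23 members had a lower mean with EGCG in WAT cells and 1 of 23 in BAT cells.

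Serum response factor (SRF) drives many contractile genes through the CArG box, a short motif with CC and GG at its ends and 6 A or T bases between. Srf itself was at 14, 14.3 and 15 FPKM in WAT cells and 13.7, 13.3 and 13.9 in BAT cells with EGCG, which was not called (adjusted p = 0.628), while in control cells it was lower in BAT cells with a log2 change of -1.14. RefSeq promoters of 250 bases before to 50 after the gene start (GRCm38.p6, a later build than the mm9 of the files) were matched for 20 of the 24 list members. The motif, searched on both strands, stood in the promoters of 5 of these 20 genes (25.0%), against 488 of 27025 genes (1.81%) and 535 of 32851 promoters (1.63%) overall. No match stood in this window of Acta2, and the promoters of Actg2, Tagln, Myh11 and Myocd were not among those matched. The matches are shown to give the motif in the members that hold it, each as 30 bases with the CArG box in capitals, 5′ to 3′ on the strand of the gene.
Cnn2, chr10:79988534-79988563, plus strand, 56 bases upstream of the start: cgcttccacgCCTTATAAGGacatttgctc
Myl6, chr10:128493040-128493069, minus strand, 50 bases upstream: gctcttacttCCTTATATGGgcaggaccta
Myl9, chr2:156775293-156775322, plus strand, 161 bases upstream: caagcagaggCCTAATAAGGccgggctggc
Srf, chr17:46556225-46556254, minus strand, 82 bases upstream: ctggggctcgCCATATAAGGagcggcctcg
Srf, chr17:46556205-46556234, minus strand, 62 bases upstream: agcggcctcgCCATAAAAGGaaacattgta
Vcl, chr14:20929161-20929190, plus strand, 227 bases upstream: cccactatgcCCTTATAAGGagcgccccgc
Of these 5 genes, Cnn2, Myl9, Myl6 and Vcl were higher in BAT cells with EGCG and Srf was not called, beside 19 higher of 23 in the whole list. A match describes letters in this window only and was not tested as a site.

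**Figure D3:**
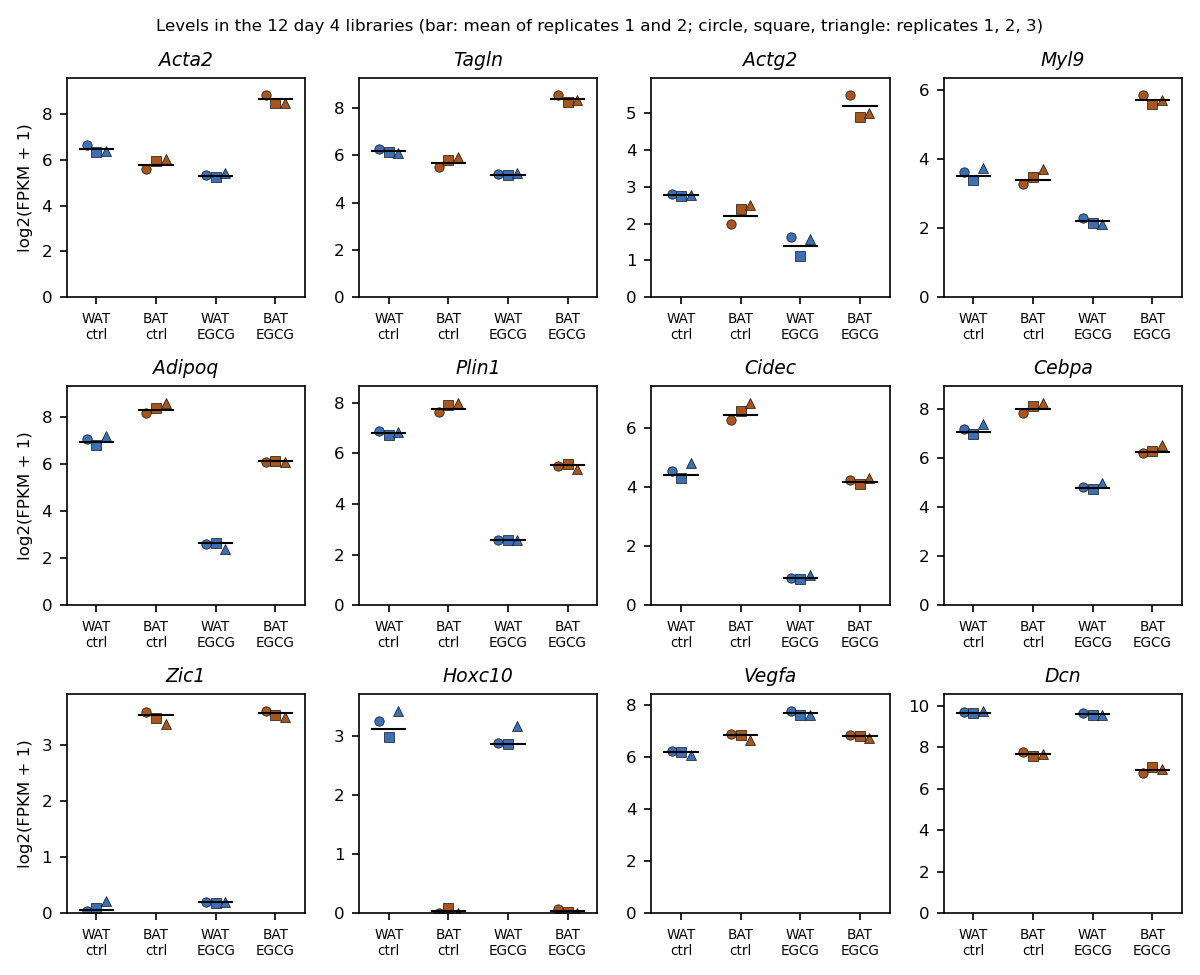
Levels of 12 genes as log2(FPKM + 1) in the 12 libraries of day 4, by group, with circles, squares and triangles for replicates 1, 2 and 3 and a bar at the mean of replicates 1 and 2. Acta2, Tagln, Actg2 and Myl9 stand out in BAT cells with EGCG, Adipoq, Plin1, Cidec and Cebpa are highest in BAT control cells and lowest in WAT cells with EGCG, and Zic1 and Hoxc10 separate the depots with and without EGCG.

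The adipocyte programme was higher in BAT cells, at a level far below that of the control cells. The summed level of 40 listed genes was 2065, 2078 and 2075 FPKM in WAT cells with EGCG and 3222, 3303 and 3382 in BAT cells with EGCG, whereas control cells were at 8075, 7232 and 8582 in WAT and 12075, 14021 and 15101 in BAT. With EGCG the mean was lower than in control cells for 35 of 40 genes in WAT cells and for 37 of 40 in BAT cells. Between depots with EGCG, 29 of 40 were higher in BAT cells, 2 were lower and 9 were not called, 19 being at least 2-fold higher and 1 at least 2-fold lower. The median log2 change was 0.97 with EGCG and 0.95 in control cells, so the list as a whole kept its depot difference, but 16 of its interactions were called as higher and 10 as lower.

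Adipoq, the adipocyte hormone adiponectin, was at 5.04, 5.31 and 4.29 FPKM in WAT cells with EGCG and 66.3, 69.3 and 66.3 in BAT cells, a log2 change of 3.48 ± 0.09 (SE, adjusted p = 1.72e-09). In control cells it was at 131, 110.2 and 143 and 285, 333 and 377, a log2 change of 1.35, and the interaction was 2.13 ± 0.13 (SE, adjusted p = 1.46e-06). The WAT cells with EGCG were thus the lowest group by a wide margin, and the BAT cells with EGCG did not reach either control group. Plin1, the lipid droplet coat protein perilipin 1, was at 4.93, 4.99 and 4.94 in WAT cells and 44.4, 46.7 and 40.5 in BAT cells, a log2 change of 2.96 ± 0.14 (SE, adjusted p = 4.17e-08). Cidec, which fuses lipid droplets, was at 0.896, 0.86 and 1.02 and 17.9, 16 and 18.7, a log2 change of 3.25 ± 0.11 (SE, adjusted p = 4.49e-09). Both had a larger BAT excess than in control cells, with interactions of 1.99 and 1.25. The complement factor adipsin, Cfd, was higher by 2.67, the acyltransferase Agpat2 by 2.22, the lipases Lipe and Pnpla2 by 2.08 and 2.02, and the acyl-CoA synthetase Acsl1 by 2.09.

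Among regulators of the programme, Cebpa and Pparg were higher as well, whereas Cebpb was not called (log2 change -0.12, adjusted p = 0.349). Cebpa, the transcription factor C/EBPα, was at 27.1, 25.6 and 30.5 FPKM in WAT cells and 72.7, 77.5 and 90.7 in BAT cells, a log2 change of 1.48 ± 0.10 (SE, adjusted p = 5.24e-07), with no overlap between the groups. Pparg, the nuclear receptor that governs adipocyte fate, was at 17.8, 18.5 and 14.7 and 23.6, 26.7 and 22.3, a log2 change of 0.44 ± 0.11 (SE, adjusted p = 0.00447). Fabp4, an abundant fatty acid carrier, and Scd1, a fatty acid desaturase, were higher by 1.46 and 1.98, close to 1.35 and 1.71 in control cells. The 2 lower genes were Lpl, lipoprotein lipase, at 663, 752 and 576 in WAT cells and 294, 335 and 311 in BAT cells, and Plin2, the droplet coat protein of many cell types, at 193, 182 and 198 and 96, 96.6 and 106. Both were lower in BAT control cells as well, by less, with interactions of -0.69 and -0.71. Srebf1, a lipogenic transcription factor, also had an interaction on that side, of -0.64.

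Brown fat regulators differed mostly by small amounts. Of 26 tested, 16 were higher in BAT cells with EGCG, 2 were lower (4 with all 3 replicates and a replicate block) and 8 were not called, with a median of 0.29 against 0.25 in control cells. Only Zic1 and Lhx8, which mark the brown lineage, exceeded 2-fold. Prdm16, which directs brown fat fate, was at 1.21, 1.45 and 1.08 FPKM in WAT cells and 1.61, 1.83 and 1.81 in BAT cells, a log2 change of 0.22 ± 0.08 (SE, adjusted p = 0.0366). This call ended without BAT replicate 2 (adjusted p = 0.213) or WAT replicate 1 (adjusted p = 0.225), and after either scaling. Ebf2, a brown preadipocyte factor, was at 7.81, 9.70 and 7.17 in WAT cells and 11.2, 11.7 and 7.74 in BAT cells, a log2 change of 0.36. The zinc finger gene Zfp423 was higher by 0.78 with EGCG and was not called in control cells. Nfia and the thyroid hormone receptor Thra were the lower genes, at -0.43 and -0.34, and Thra was higher in BAT control cells, by 0.59.

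The brown fat markers Ucp1 and Cidea were at low levels on day 4. Ucp1, the uncoupling protein of brown fat, was at 0, 0.013 and 0.0778 FPKM in WAT cells and 0.0139, 0.0247 and 0.101 in BAT cells, at most 3 reads in any EGCG library of day 4. Cidea, another brown fat marker, was at 0, 0 and 0.11 and 0, 0.47 and 0.142, with overlapping groups and no call (adjusted p = 0.152). Of 21 tested genes, 9 were higher in BAT cells, 2 were lower and 10 were not called. The beta-3 adrenergic receptor Adrb3 was at 0.844, 0.86 and 0.793 in WAT cells and 11, 11.6 and 13.1 in BAT cells, a log2 change of 2.73 ± 0.11 (SE, adjusted p = 1.33e-08), above its change of 1.83 in control cells. Pdk4, the pyruvate dehydrogenase kinase of fasting, and Ckb, creatine kinase B, were higher by 1.58 and 1.45 with EGCG, and neither was called in control cells. Elovl3, a fatty acid elongase of brown fat, was higher in BAT control cells by 1.47, while with EGCG it was at 0.0362, 0.057 and 0.113 in WAT cells and 0.666, 0.172 and 0.527 in BAT cells and was not called. Cox7a1, a muscle and brown fat isoform of a respiratory subunit, and Ucp2 were the lower genes, at -0.61 and -0.56. Both calls ended without WAT replicate 1, with adjusted p = 0.0598 and 0.112.

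Positional genes separated the depots with EGCG as without. Hox genes encode transcription factors whose order in each cluster follows the body axis. Of 25 tested Hox genes, 15 were higher in BAT cells with EGCG, 5 were lower and 5 were not called. The 4 that were at least 2-fold lower were of the posterior groups 9 and 10. The BAT libraries of the fit alone would have let 21 of the 25 pass the filter of 1 FPKM in at least 2 libraries, and the WAT libraries alone 20. For genes that passed through 1 depot only, the direction was largely set by the filter. Hoxc10 (chr15:102797227-102802324) was at 6.35, 6.28 and 7.98 FPKM in WAT cells and 0.0477, 0.0106 and 0 in BAT cells, a log2 change of -2.83 ± 0.09 (SE, adjusted p = 4.49e-09). Hoxa10 was at 2.37, 2.47 and 2.59 in WAT cells and 0, 0.00791 and 0 in BAT cells. Hoxc9 and Hoxa9 had log2 changes of -1.40 and -1.40. For these 4 genes no BAT library was above 0.585 FPKM and no WAT library was below 1.57. These BAT levels were under the filter of 1 FPKM, so the filter may have set the direction of these 4 genes.

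The anterior genes Hoxa5 and Hoxa3 were the 2 that were at least 2-fold higher in BAT cells. Hoxa5 was at 2.43, 2.00 and 2.89 FPKM in WAT cells and 11.4, 11.1 and 9.16 in BAT cells, a log2 change of 1.93 ± 0.11 (SE, adjusted p = 1.42e-07), and Hoxa3 at 0.82, 0.527 and 0.909 and 3.97, 2.73 and 3.49, a log2 change of 1.37. Control cells gave 1.85 and 1.39. Hoxa5 lies within longer Hoxa3 transcripts, and the Hoxc cluster from Hoxc5 to Hoxc10 overlaps a longer transcript, both on the same strand, so these counts are uncertain in part. Over the list the median was 0.39 with EGCG and 0.63 without, and the interaction was called as higher for 2 genes and as lower for 4, a number that went to 1 after median-ratio scaling and 0 after quantile normalization, and to between 0 and 3 when any 1 library was left out. Over all genes tested, the interaction was called as higher for 12% and as lower for 16.1%. Group 9 also held an exception, since Hoxb9 was higher in BAT cells, by 0.84.

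Of 41 tested other developmental transcription factors, 19 were higher in BAT cells with EGCG, 11 were lower and 11 were not called. In control cells 19 were higher and 17 lower, and the interaction was called as higher for 8 and as lower for 5. The BAT libraries of the fit alone would have let 37 of the 41 pass the filter on low values, and the WAT libraries alone 32. Where a gene passed through 1 depot only, its direction was largely set by the filter. This may hold for Zic1, which was below 1 FPKM in WAT cells with EGCG. Zic1, a zinc finger factor of paraxial mesoderm (chr9:91252896-91260648), was at 0.154, 0.138 and 0.145 FPKM in WAT cells and 11.1, 10.6 and 10.2 in BAT cells, a log2 change of 3.37 ± 0.08 (SE, adjusted p = 3.47e-10). Control cells gave 3.47, and the interaction was -0.10 ± 0.11 (SE, adjusted p = 0.546), although limma voom on recovered reads, which follows ratios at the low WAT levels, gave -1.80 (adjusted p = 0.0396). Its neighbour Zic4, which overlaps it on the opposite strand, was higher by 1.19. The homeobox factor Six2 was higher by 1.51, the forkhead factor Foxc2 by 1.51, Gata2 by 1.17, Lhx8 by 1.05 and the myogenic lineage factor Pax3 by 1.01.

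On the WAT side stood Irx2 and Irx1, iroquois homeobox genes. Irx2 was at 13.4, 11.2 and 11.4 FPKM in WAT cells and 1.68, 1.88 and 1.91 in BAT cells, a log2 change of -2.25 ± 0.09 (SE, adjusted p = 1.73e-08), and Irx1 at 11.3, 8.77 and 13.1 and 2.00, 1.43 and 1.74, a log2 change of -2.02. Tbx1, a T-box factor linked to beige adipocytes, had a log2 change of -1.30, Hand2 one of -1.19 and Gata3 one of -1.14. The WAT libraries lay above the BAT libraries for each of these genes. Alx4, a homeobox gene, had a log2 change of -0.54 with EGCG and -1.86 in control cells.

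Markers of other cell types differed between the depots in both directions. Of 12 listed epithelial markers 10 were tested, 8 of them only because of their levels in WAT libraries, so that their direction was largely set by the filter on low values. All 10 were lower in BAT cells with EGCG, each at least 2-fold. The summed level of the 12 markers was 154, 78.6 and 228 FPKM in WAT cells and 1.38, 1.99 and 1.91 in BAT cells, and in control cells it was 58.4, 48.6 and 93 in WAT and 0.459, 0.541 and 0.707 in BAT. Krt8, a keratin of simple epithelia (chr15:101827142-101834773), was at 30, 15.8 and 31 in WAT cells with no read in BAT cells, which put it at least 640.5-fold lower there on a floor of 3 reads per library. Its partner keratin Krt18 was at 24.9, 12 and 70.7 in WAT cells and 0, 0.0579 and 0 in BAT cells. The basal keratins Krt14 and Krt17 were at least 358-fold and 207-fold lower, and the tight junction claudin Cldn4 had a log2 change of -3.54 ± 0.31 (SE, adjusted p = 3.51e-06).

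Secreted products of the same side were Csn3, the milk protein kappa-casein, at least 219.5-fold lower, the whey acidic protein family members Wfdc2 and Expi, at least 125-fold and 160.1-fold lower, and the protease inhibitor Slpi, at 33.8, 10.7 and 27.7 FPKM in WAT cells and 0.91, 0.903 and 0.755 in BAT cells. These bounds, and the 0 values behind them, refer to replicates 1 and 2, and in replicate 3 of BAT cells Krt17 and Csn3 had 1 read each. Krt19, a keratin shared by epithelial and mesothelial cells, was at 28.1, 16.3 and 29.8 in WAT cells and 1.17, 1.74 and 1.61 in BAT cells. Replicate 2 of WAT cells had the lowest level of these genes among the WAT libraries. In the WAT libraries with EGCG the epithelial sum ranged from 78.6 to 228 FPKM, the latter in replicate 3. The contractile sum ranged from 916 to 982, and the adipocyte sum was 2065, 2078 and 2075. The part of epithelial cells in the other results was not tested.

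Of 35 listed skeletal muscle genes 23 were tested, and these were lower in BAT cells with EGCG, 21 of them at least 2-fold. The BAT libraries of the fit alone would have let 20 of the 23 pass the filter on low values, although 13 were below 1 FPKM in both BAT EGCG libraries of day 4. Of the 12 that were not tested, Myh2, Myh7 and Tnnc1 did not have a lower maximum in BAT cells. Myog, the muscle differentiation factor myogenin, was at 7.17, 7.31 and 6.26 FPKM in WAT cells and 0.724, 1.26 and 1.30 in BAT cells, a log2 change of -2.06 ± 0.24 (SE, adjusted p = 2.71e-05). Mylpf, a fast muscle myosin light chain, was at 43.6, 42.8 and 42.4 and 6.13, 9.19 and 10.6, a log2 change of -2.38 ± 0.17 (SE, adjusted p = 7.3e-07). The myosin heavy chain Myh8, the light chain Myl1 and the troponin Tnnt3 had log2 changes of -2.41, -2.36 and -2.31. The 35 listed genes summed with EGCG to 246, 252 and 248 FPKM in WAT cells and 40.8, 51.6 and 61.8 in BAT cells. Without EGCG the sums were 135, 141 and 148 in WAT cells and 33.4, 54.5 and 39.9 in BAT cells. The median log2 change of the tested members was -1.74 with EGCG and -0.88 without. No member had a lower mean with EGCG than in control cells in WAT, and 11 of 23 had one in BAT. The satellite cell genes Pax7 and Myf5 were at most at 0.0219 and 0.163 FPKM in any EGCG library and were not tested. The interaction was called as lower for 15 of the 23 genes, a count that was 8 without BAT EGCG replicate 1 or WAT control replicate 1 and 9 without BAT control replicate 2.

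Macrophage markers were higher in BAT cells with EGCG in 9 of 12 tested members, with 3 not called. In control cells 11 of the 12 were higher. The median log2 change was 0.77 with EGCG and 1.06 in control cells, and the interaction was called as higher for 1 member and as lower for 1. The 14 listed markers summed to 231, 230.3 and 214 FPKM in WAT cells and 494, 450.0 and 542 in BAT cells with EGCG. Lyz2, lysozyme, was at 164, 160.5 and 152 in WAT cells and 355, 314 and 382 in BAT cells, and the complement C1q genes C1qa, C1qb and C1qc were higher by 1.25, 1.24 and 1.23. The pan-leukocyte gene Ptprc was at most at 0.151 in WAT cells and 0.436 in BAT cells. Il1rn and the chemokines below are also made by macrophages, and the part of these cells in their difference was not tested.

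Of 11 endothelial markers 1 was higher (2 with all 3 replicates and a replicate block), 2 were lower and 8 were not called, and Cldn5, an endothelial claudin, had a log2 change of -1.85. Of 8 Schwann and nerve markers 4 were higher, among them the glial factor Sox10 by 0.62, and 4 were not called. Of 8 pericyte markers 4 were higher and 3 lower, with Cspg4 at 1.36 and the potassium channel Kcnj8 at -1.80. Leaving out 1 library with EGCG took the lower endothelial genes to 1 (without any but BAT replicate 2), the higher Schwann and nerve genes to 2 (without BAT replicate 2) and the lower pericyte genes to 1 (without BAT replicate 1 or WAT replicate 2). Of the 3 tested mesothelial markers only Krt19 was called. Y-linked genes were at 0 in all libraries with EGCG of day 4, and Xist was present in each.

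**Figure D4:**
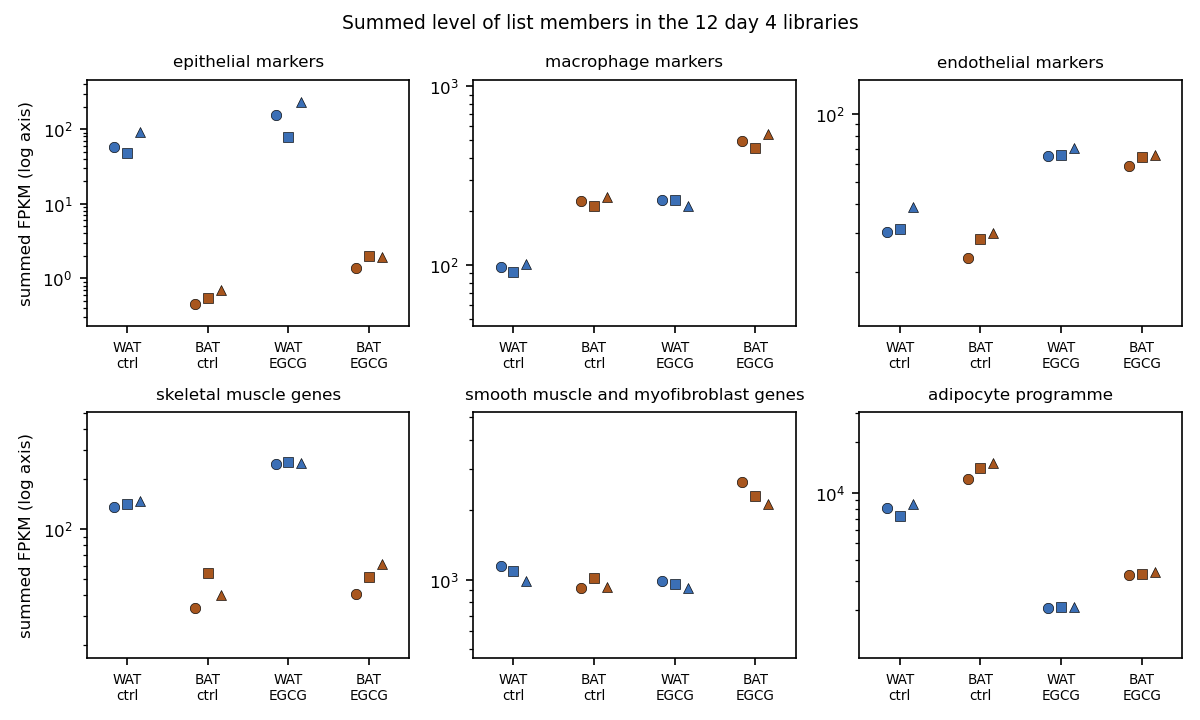
Summed FPKM of marker and gene lists in each library of day 4, on a log axis, by group. The epithelial sum is at most 1.99 FPKM in every BAT library and at least 48.6 in every WAT library, the skeletal muscle sum is highest in WAT cells with EGCG, and the contractile sum is highest in BAT cells with EGCG.

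More matrix genes were lower than higher in BAT cells. Over all genes tested, 32.9% were higher and 15.8% lower with EGCG. Of 50 tested matrix glycoproteins and enzymes, 16 were higher in BAT cells with EGCG, 21 were lower and 13 were not called. The median was -0.18 with EGCG and -0.60 in control cells, and the interaction was called as higher for 22 and as lower for 8, the latter being 5 without BAT EGCG replicate 1. Dcn, the collagen-binding proteoglycan decorin, was at 792, 759.7 and 749 FPKM in WAT cells and 108, 131 and 122 in BAT cells, a log2 change of -2.69 ± 0.10 (SE, adjusted p = 9.01e-09). Eln, elastin, was at 25.7, 23.5 and 20.7 and 2.58, 3.34 and 2.92, a log2 change of -2.70 ± 0.18 (SE, adjusted p = 5.01e-07). The matrix metalloproteinases Mmp3 and Mmp2 had log2 changes of -2.32 and -1.72, and the proteoglycan Ogn had -1.59. All BAT libraries were below all WAT libraries for these genes.

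The BAT side held Prelp and Fmod, proteoglycans that bind collagen. Prelp was at 2.78, 2.54 and 2.96 FPKM in WAT cells and 18.8, 18.6 and 20.8 in BAT cells, a log2 change of 2.43 ± 0.09 (SE, adjusted p = 9.01e-09). Fmod, fibromodulin, was at 0.937, 0.818 and 0.97 and 8.62, 8.96 and 7.67, a log2 change of 2.38 ± 0.20 (SE, adjusted p = 2.3e-06), although in control cells it was at 6.40, 5.78 and 5.67 and 3.95, 3.67 and 3.87, which gave an interaction of 2.94 ± 0.28 (SE, adjusted p = 2.39e-05). The cartilage matrix protein Comp, the gelatinase Mmp9, osteopontin Spp1 and the protease inhibitors Timp1 and Timp3 were higher by 2.07, 1.40, 1.25, 1.15 and 1.15. Biglycan, Bgn, was abundant and higher by 0.84.

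Several matrix genes were lower in BAT control cells and were not called with EGCG. Mfap4, an elastic fibre protein, was at 1.83, 2.81 and 2.22 FPKM in WAT cells and 1.84, 2.01 and 2.05 in BAT cells with EGCG, against 53.2, 46.9 and 45 and 5.69, 5.92 and 7.20 without, an interaction of 2.74 ± 0.22 (SE, adjusted p = 8.29e-06). Thbs1, thrombospondin 1, was at 239, 249.7 and 223 and 269, 245 and 204 with EGCG and at 284, 289 and 241 and 88.2, 88 and 84.9 without, an interaction of 1.76 ± 0.31 (SE, adjusted p = 0.00154). For both genes the groups overlapped with EGCG and not without. Cilp, Mmp11 and Mfap2 had control differences of -2.40, -1.97 and -1.59, no call with EGCG and interactions of 2.13, 1.75 and 1.33, although all BAT libraries with EGCG still lay below all WAT libraries for these 3 genes. Fbln5, another elastic fibre protein, turned from -1.24 in control cells to 0.51 with EGCG.

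Among 26 tested collagen chains, 13 were lower in BAT cells with EGCG, 8 were higher and 5 were not called. Over all genes tested, 15.8% were lower and 32.9% higher. Col1a1, the main chain of type I collagen, was at 1120.3, 1272 and 1380.3 FPKM in WAT cells and 676, 673 and 835 in BAT cells, a log2 change of -0.82 ± 0.10 (SE, adjusted p = 5.73e-05). Col3a1, the most abundant chain here, was at 4982, 5458 and 5374 and 2836, 3166 and 3353, a log2 change of -0.80 ± 0.15 (SE, adjusted p = 0.0009). The lowest log2 change in the list was that of Col5a3, at -1.58. The WAT libraries were above the BAT libraries for all these chains. The higher chains were led by Col8a1 of the network-forming type VIII, at 2.42, 2.67 and 1.95 in WAT cells and 15.9, 14.7 and 14.3 in BAT cells, a log2 change of 2.20 ± 0.13 (SE, adjusted p = 1.7e-07), and by Col11a1 and Col28a1, at 1.45 and 1.35. Col8a2, its partner chain, had a log2 change of -1.93 in control cells and, with EGCG, was at 0.167, 0.188 and 0.207 in WAT cells and 0.515, 0.688 and 0.827 in BAT cells, an interaction of 2.37. After quantile normalization Col3a1 was not called (adjusted p = 0.0691), and the number of higher chains went from 8 to 5. It was also 5 without BAT replicate 1, WAT replicate 1 or WAT replicate 2.

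Wnt, BMP and TGF-beta signals restrain or promote adipogenesis and act on preadipocytes through secreted ligands and antagonists. Of 42 tested genes, 20 were higher in BAT cells with EGCG, 6 were lower and 16 were not called, with medians of 0.27 with EGCG and -0.04 without. The interaction was called as higher for 19 and as lower for 7. Ltbp2 and Wisp2, described above, are in this list. Rspo3, an R-spondin that amplifies Wnt signals, was at 1.43, 1.08 and 1.89 FPKM in WAT cells and 14.8, 13.3 and 11.8 in BAT cells, a log2 change of 2.74 ± 0.12 (SE, adjusted p = 1.82e-08). Sfrp1, a secreted Wnt antagonist, was at 66, 82.9 and 71.9 and 336, 331 and 323, a log2 change of 2.16 ± 0.18 (SE, adjusted p = 2.06e-06). The groups did not overlap. The BMP antagonist Grem1, the Dickkopf family member Dkk3, the ligand Bmp4 and the ligand Tgfb3 were higher by 1.83, 1.59, 1.24 and 1.20, and Tgfb3 was lower in BAT control cells, at -0.49.

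Gdf10, a BMP family ligand, was at 125, 138 and 129 FPKM in WAT cells and 19.8, 23.1 and 25 in BAT cells, a log2 change of -2.57 ± 0.09 (SE, adjusted p = 5.32e-09). The Wnt antagonists Sfrp5 and Sfrp2 had log2 changes of -1.60 and -1.55. Axin2, a target and inhibitor of Wnt signalling, was at 2.91, 3.05 and 2.90 in WAT cells and 0.503, 0.695 and 0.699 in BAT cells, a log2 change of -1.32, near the -1.31 of control cells. Ligands and antagonists were therefore found on both sides.

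Of 40 tested IGF, FGF and imprinted growth genes, 11 were higher in BAT cells with EGCG, 15 were lower and 14 were not called. Over all genes tested, 32.9% were higher and 15.8% lower, and the interaction was called as higher for 12% and as lower for 16.1%. Igfbp3, the main IGF carrier, was at 519, 443 and 533 FPKM in WAT cells and 122, 126 and 127 in BAT cells, a log2 change of -1.94 ± 0.15 (SE, adjusted p = 1.66e-06). H19, an imprinted long RNA, was at 384, 477 and 447 and 173, 211 and 245, a log2 change of -1.16 ± 0.24 (SE, adjusted p = 0.00208). Fgf21 and the lipoprotein lipase inhibitor Angptl4 had log2 changes of -1.22 and -1.01. Growth factors on the BAT side included Fgf2, Fgf18, Pdgfa and Fgf7, at 1.51, 1.41, 1.17 and 1.04. Igfbp6, another IGF carrier, went from -2.18 in control cells to -0.84 with EGCG, an interaction of 1.35. The interaction was called as higher for 15 members and as lower for 5, the latter being 2 to 5 when any 1 library was left out.

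Secreted immune genes differed in both directions, also among genes of the same kind. Of 39 tested chemokines, cytokines and complement genes, 17 were higher in BAT cells with EGCG, 9 were lower and 13 were not called. Ccl7, a monocyte chemokine, was at 19.2, 17.1 and 23.4 FPKM in WAT cells and 86.5, 87.5 and 89 in BAT cells, a log2 change of 2.20 ± 0.27 (SE, adjusted p = 3.97e-05). Ccl2, another monocyte chemokine, was higher with EGCG by 1.46 and in control cells was at 14.3, 15 and 15.7 in WAT cells and 9.46, 9.03 and 8.63 in BAT cells, an interaction of 2.07. Csf1, the macrophage growth factor, and Tnfsf11, the osteoclast ligand RANKL, were higher by 1.28 and 1.99, and the latter differed more in control cells, by 3.51. Csf3, the granulocyte growth factor, was at 12.7, 7.88 and 15.2 in WAT cells and 1.23, 1.68 and 1.87 in BAT cells, a log2 change of -2.18 ± 0.21 (SE, adjusted p = 6.81e-06). In control cells Csf3 was at most at 1.09 FPKM in each library. The acute phase gene Saa3, the complement protease C1s, the interleukin-33 receptor Il1rl1 and its ligand Il33 had log2 changes of -2.17, -1.40, -1.28 and -1.16.

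Only 4 of 11 listed MHC class II genes were tested and 1 was called. H2-Ab1, a class II beta chain, was at 20.9, 15 and 22.4 FPKM in WAT cells and 3.50, 2.98 and 4.10 in BAT cells with EGCG, a log2 change of -2.14 ± 0.29 (SE, adjusted p = 9e-05), while in control cells it was not called (adjusted p = 0.323). The interaction was -2.49 ± 0.41 (SE, adjusted p = 0.00102). The partner chain gene H2-Aa was listed at 0 in all EGCG libraries, and the invariant chain Cd74 was at most at 0.0965, so the level of H2-Ab1 was not matched by those of its usual partners.

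Among 33 tested NRF2 targets and antioxidant genes, 12 were lower in BAT cells with EGCG, 6 were higher and 15 were not called, with a median of -0.12 against 0.25 in control cells. The number of lower genes was 6 without WAT replicate 1. Hmox1, haem oxygenase 1, was at 1155, 1082 and 1236 FPKM in WAT cells and 529.8, 488 and 516 in BAT cells, a log2 change of -1.13 ± 0.08 (SE, adjusted p = 6.12e-07). Srxn1, which repairs peroxiredoxins, was at 71.7, 66.3 and 70.8 and 37, 35.2 and 39.1, a log2 change of -0.92 ± 0.06 (SE, adjusted p = 4.33e-07). BAT libraries were below WAT libraries for both. On the other side, the extracellular superoxide dismutase Sod3, the glutathione peroxidase Gpx1 and the quinone reductase Nqo1 were higher by 1.67, 0.87 and 0.48. The interaction was called as higher for 1 gene and as lower for 14 (22 in the fit of all 3 replicates with the replicate number as a block). Of the 14 genes, the cystine transporter Slc7a11 had the largest at -2.02 ± 0.19 (SE, adjusted p = 2.41e-05). Slc7a11 was higher in BAT control cells by 1.69 and not called with EGCG.

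Cell cycle genes were higher in BAT cells in 29 of 30 cases, 21 of them at least 2-fold, with a median of 1.10 against 0.75 in control cells. Rrm2, which makes deoxynucleotides, was at 19.2, 17.1 and 17.9 FPKM in WAT cells and 59.4, 55.6 and 49 in BAT cells, a log2 change of 1.61 ± 0.13 (SE, adjusted p = 2.05e-06). Ccnb1, the mitotic cyclin B1, was at 6.40, 6.62 and 6.07 and 18.2, 20.6 and 18.4, a log2 change of 1.44 ± 0.10 (SE, adjusted p = 6.53e-07). Mki67, the marker Ki-67, and the topoisomerase Top2a were higher by 1.04 and 1.31. For each of these genes the BAT libraries were above the WAT libraries. Cdkn1a, the cell cycle inhibitor p21, was the exception, at 218, 194 and 218 in WAT cells and 213, 212 and 207 in BAT cells, with overlapping groups, although it was higher in BAT control cells by 1.01. The higher genes also include an inhibitor of the cell cycle, Cdkn2a, with a log2 change of 1.39 with EGCG and 0.99 in control cells. With EGCG the mean was lower than in control cells for 27 of 30 genes in WAT cells and for 14 of 30 in BAT cells.

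Progenitor markers did not move as 1 group, with 15 of 28 tested higher in BAT cells, 6 lower and 7 not called. Pdgfra, the receptor used to sort adipose progenitors, was at 121, 131 and 113 FPKM in WAT cells and 70, 73.9 and 65.7 in BAT cells, a log2 change of -0.80 ± 0.09 (SE, adjusted p = 1.59e-05). Cd34, a progenitor surface antigen, had a log2 change of -0.99. The surface proteins Thy1, Eng and Anxa3 were higher by 1.25, 1.26 and 1.48. Ly6a, the stem cell antigen Sca-1, was at 315, 302 and 286 in WAT cells and 187, 235 and 232 in BAT cells with EGCG and at 88.9, 113 and 111 and 207, 149 and 161 without, an interaction of -1.35 ± 0.23 (SE, adjusted p = 0.0012). The interaction was called as higher for 11 members and as lower for 2.

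**Figure D5:**
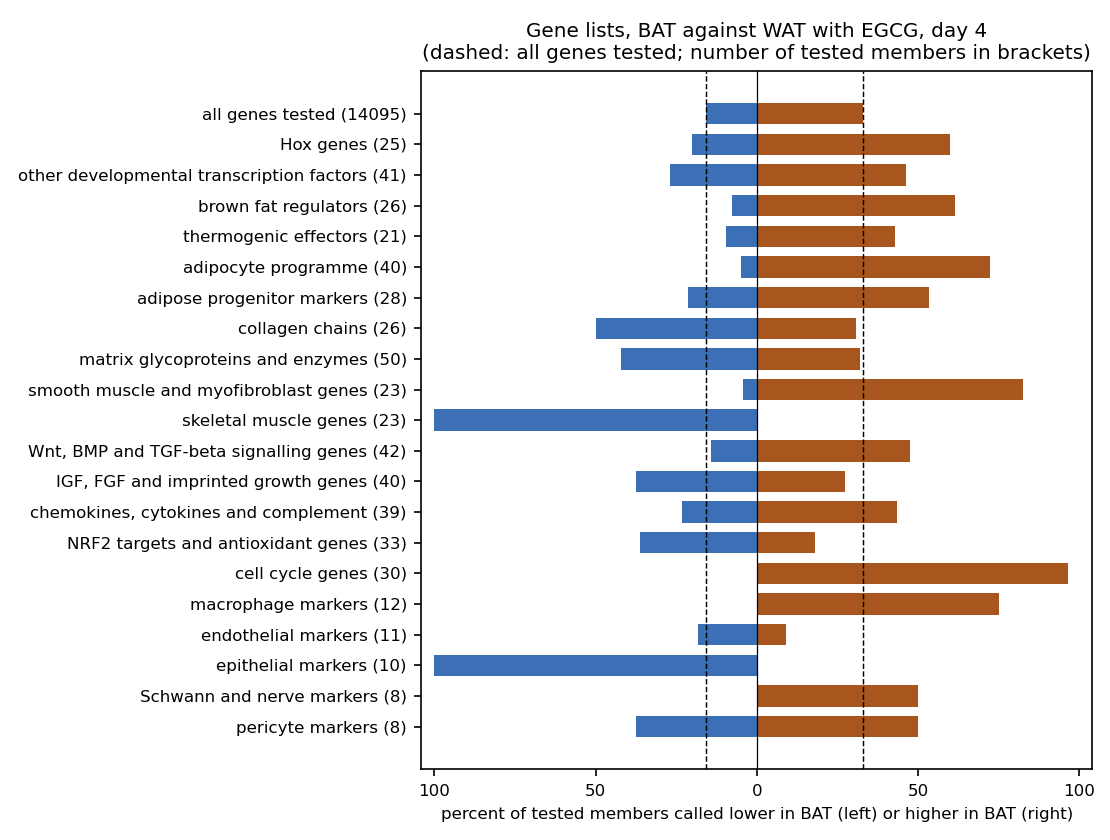
Share of the tested members of each gene list (x axis, percent) that were called higher in BAT cells (bars to the right) or lower (bars to the left) with EGCG, beside all genes tested (dashed lines at 32.9% and 15.8%). All epithelial and skeletal muscle members are on the left, 29 of 30 cell cycle genes are on the right, and the Hox, matrix and collagen lists have bars on both sides.

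The depot differences with and without EGCG were also compared gene by gene, and the genes with the smallest adjusted p of the interaction are given. Those with a higher interaction were Gadd45g, Cygb, Ddah1, Mxra7, Fst and Fbln5. Gadd45g, a growth arrest gene, was at 19.3, 17.6 and 25.5 FPKM in WAT cells and 87.2, 82.7 and 90.5 in BAT cells with EGCG and at 62.6, 59.5 and 66.5 and 57.9, 60.6 and 61.5 without. The control depots overlapped and the EGCG depots were apart, with an interaction of 2.19 ± 0.11 (SE, adjusted p = 5.43e-07). Cygb, a globin of fibroblasts, turned from -0.83 in control cells to 0.98 with EGCG, Ddah1, which degrades methylated arginines, from -0.89 to 0.89, and the matrix-associated gene Mxra7 from -0.88 to 1.20. Fst, the activin antagonist follistatin, was at 59.9, 62.5 and 55.7 in WAT cells and 67.6, 64.9 and 56.8 in BAT cells with EGCG, against 151, 138 and 124 and 58, 57.4 and 55.2 without. WAT control cells were the high group, and the other 3 groups were near each other.

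Those with a lower interaction were Tnfrsf18, Vegfa, Neat1, Gpi1, Hk2 and Tspan12. Vegfa, the angiogenic growth factor (chr17:46153942-46169326), was at 215, 196 and 195 FPKM in WAT cells and 115, 111 and 105 in BAT cells with EGCG, against 73.6, 72.5 and 67.6 and 116, 114 and 101 without, an interaction of -1.51 ± 0.06 (SE, adjusted p = 2.68e-07). BAT cells were at the same level with and without EGCG, and WAT cells went from below them to above them. Gpi1, glucose-6-phosphate isomerase, and Hk2, hexokinase 2, turned in the same way, from 0.30 and 0.54 in control cells to -0.98 and -0.39 with EGCG. Neat1, a nuclear long RNA, was at 65.9, 67.1 and 58.3 in WAT cells and 64.6, 62.4 and 66.1 in BAT cells with EGCG, with overlapping groups, against 24.4, 25.6 and 24.5 and 78.9, 81.6 and 77.6 without. Tspan12, a tetraspanin, and Tnfrsf18, the TNF receptor superfamily member GITR, had interactions of -1.59 and -2.28.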

How the data were processed

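Total RNA of cultured SVF cells was sequenced on an Illumina platform, and the authors deposited 2 tables of FPKM values for 37310 genes, 16 libraries (replicates 1 and 2 of 8 groups) in the first and 8 (replicate 3) in the second. FastQC 0.11.9, HISAT2 2.2.0, HTSeq 0.11 and the mm9 build are named in the submitters' processing notes, and their settings, strand included, are not given in the sources used here. Gene IDs were matched to symbols in the GENCODE annotation of mm9 for 37310 of 37310 genes. In every library 100% of values were whole reads at a tolerance of 0.01 once multiplied back, so reads on genes could be recovered, from 39452696 to 52893848 per library in the first table and from 16392420 to 41675643 in the second. At 3 reads, the floor of a 2 kb gene was 0.0304 to 0.0342 FPKM in the EGCG libraries of day 4 in the first table and 0.0640 to 0.0827 in the second. Floors cover counting error only, whereas SE values come from the spread between libraries in the fit.

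FPKM values with a pseudocount of 1 were log2 transformed and fitted with limma 3.58.1 (R 4.3.3, trended prior, two-sided moderated test) over the 16 libraries of the first table, with a common estimate of the variance from 8 residual degrees of freedom (11.4 after moderation). Genes at FPKM 1 or more in at least 2 libraries were tested. P-values were adjusted by Benjamini-Hochberg over all genes tested in each comparison. Replicate 3 entered only as a direction, since its table was made separately. Tables were assembled in Python 3.11.15 with pandas 2.3.3 and numpy 2.4.6. A bound of the form "at least N-fold lower" divides the mean WAT FPKM of replicates 1 and 2 by the floor of 3 reads per library.

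The genes named were the 12 highest and the 12 lowest log2 changes among called genes with a symbol, a mean of at least 5 FPKM in the higher group and 1 direction throughout replicates 1, 2 and 3. Interactions named were the 6 smallest adjusted p in each direction, with a mean of at least 5 FPKM in 1 of the 4 groups of day 4 and the same sign in each replicate. Members of 23 gene lists were named as well. The libraries were chosen by label. The gene lists, their members and the named-gene rule were chosen with earlier results of these data known. Replicates 1 and 2 differed by more than counting noise in each group of day 4 (median squared difference 1.89 to 2.46 times the sampling variance, against 0.455 from counting alone), so all libraries counted separately. Differences between replicates 1 and 2 did not correlate between groups (r from -0.03 to 0.08), so replicate numbers were not taken as pairs in that table. Deviations from the means of all 3 replicates correlated between groups (r from 0.76 to 0.94), and these also hold the difference between the 2 tables. On simulated data for the comparison with EGCG, 188 of 199 changed genes were called with the right sign and 7 of 12973 unchanged genes were called. At a true change of 1.5-fold 39 of 50 were called, and at 2-fold 50 of 50. The simulation gave all groups a common mean profile and all genes the same fixed spread, and it placed changes only in well-covered genes. These rates therefore do not carry over to low or more variable genes. There were 19 alternatives. The 12 libraries of day 8 were in the fit or the counts of libraries only and are not described. Values of some list members are not reported here.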

Additional observations from a re-analysis of the deposited data

Results flagged for a closer look

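The depot difference differed between cells with and without EGCG, by the limma interaction test, for 24 of the genes named above. The 12 from the depot comparison were chosen for their difference with EGCG, which is part of the interaction, so their interactions are descriptions. Contractile genes had the largest, 4.39 for Actg2, 4.06 for Acta2, 3.74 for Tagln and 3.61 for Myl9. Adipocyte genes followed with 2.13 for Adipoq, 1.99 for Plin1 and 1.25 for Cidec. Secreted proteins had 2.16 for Ltbp2, 1.91 for Hp and 0.63 for Wisp2, and on the WAT side A2m had -3.01 and Cldn4 -1.32. The 2 weakest were Wisp2 (adjusted p = 0.0346) and Cldn4 (adjusted p = 0.0442). Leaving out a single library gave adjusted p up to 0.122 for Wisp2, which stayed called only without EGCG replicate 1 of either depot, and up to 0.160 for Cldn4, which stayed called only without WAT EGCG replicate 2. Neither was called with a pseudocount of 0.1 (adjusted p = 0.0634 and 0.0749), with no filter on low values (0.0846 and 0.108) or with limma voom (0.225 and 0.534), and Cldn4 was not called after median-ratio scaling (adjusted p = 0.0591) or quantile normalization (adjusted p = 0.0570).

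The 12 genes ranked by the interaction itself were Gadd45g at 2.19, Mxra7 at 2.09, Cygb at 1.81, Ddah1 at 1.78, Fbln5 at 1.74 and Fst at 1.42, and on the other side Tnfrsf18 at -2.28, Neat1 at -1.71, Tspan12 at -1.59, Vegfa at -1.51, Gpi1 at -1.28 and Hk2 at -0.93. The groups hold 3 libraries each, too few for a test of single libraries that stand apart.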

How the results depend on the processing

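Counts of called genes were within 1.5 times of those reported under the alternatives except as follows. At least 2-fold genes numbered 707 with EGCG but 1328 with a pseudocount of 0.1 and 1407 with limma voom on recovered reads. They numbered 632 in control cells but 1349 and 1454, and in the interaction 886 and 889, since a smaller pseudocount widens the changes of low genes. In control cells the split of 5842 higher and 2025 lower became 3408 and 3324 after median-ratio scaling and 3641 and 3052 after quantile normalization, which moved the median of all genes by -0.14 and -0.12. With EGCG the split of 4644 and 2221 became 3526 and 2912 or 3288 and 3202, and for the interaction the split of 1689 and 2270 became 2262 and 1483 or 1930 and 1941. With the replicate number as a block 6749 genes were called with EGCG, 7755 in control cells and 3824 for the interaction, and with all 3 replicates and the block 7782 were called with EGCG (7855 with the table as a term). No gene quoted lost or gained its call with the block, and the labels do not say whether the numbers mark shared material.

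Leaving out 1 library at a time gave 5373 to 5747 called genes with EGCG (3618 to 4046 higher, 1679 to 1837 lower, 699 to 746 at least 2-fold). In control cells it gave 6352 to 6646 (4741 to 4922 higher, 1611 to 1724 lower, 625 to 678 at least 2-fold), and for the interaction 2882 to 3405 (1303 to 1400 higher, 1525 to 2005 lower, 512 to 578 at least 2-fold). The lone library left in a group is then assumed to vary like the others. Of the counts of list members recomputed under the alternatives, 1413 of 1564 stayed within 1.5 times, and the others were mostly counts of few genes. The 36 genes named by rule kept direction and call in all alternatives for the comparison that named them.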
